A study of Mus musculus with 21 samples.

Results

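Fibroblasts of the crypt top were sought in a mouse colon stromal library by their transcripts, and the 75 cell barcodes found are described here against the rest of the library. The library came from 1 droplet experiment on wild-type C57BL/6 female mice of 12 weeks given 2% dextran sulfate sodium (DSS), a polymer that injures the colon epithelium, at D3. The cells are labelled gp38+CD90+ total iMSC from colon (gp38 is the product of Pdpn and CD90 that of Thy1), and the number of animals is not given in the labels. The rest of the series, 12 bulk RNA samples of colon from wild-type and Map3k2-/- mice, was not analysed here. A barcode, the tag shared by the transcripts of 1 droplet, was gated when it held at least 1 unique molecular identifier (UMI, 1 counted transcript) of Pdgfra and at least 1 UMI of 2 or more of Wif1, Sox6, Ednrb, Foxl1 and Fgf9. This gave 75 of 11376 kept barcodes, or 0.659% (95% exact binomial interval 0.519 to 0.826%). They were set against the other 11301 kept barcodes and, more narrowly, against the 5711 barcodes that held Pdgfra and none of the 5 gate genes. Open chromatin was taken from peak lists of 4 stromal populations sorted from male C57BL/6 mice of 12 weeks (MRISC, CD34 SP, CD34-CD138+ and Myofibroblast), named as in the labels, with 1 list per population. Because there is 1 single-cell library and barcodes are not replicates, no p-value is given, and intervals are 95% and cover counting error only.

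Fibroblasts at the top of the colon crypt lie under the surface epithelium, where they are known as Pdgfra-high or Foxl1-positive subepithelial cells, and some of them extend long processes and are called telocytes. They are known as a source of bone morphogenetic proteins (BMPs), secreted ligands that bind paired receptor kinases, act through SMAD proteins and favour epithelial differentiation. Fibroblasts around the crypt base are known instead for BMP antagonists such as Grem1 and for R-spondins, which amplify Wnt signalling to stem cells.

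For the 4 genes with the largest folds, the specific peak ranking highest in its own list and lying outside annotated exons is printed from the RefSeq GRCm38.p6 genome, plus strand, up to its central 300 bases, to show open sequence beside the genes that mark the gated barcodes. Capitals mark matches, on either strand, of the FOX words TGTTTAC or TATTTAC and the SOX words ACAAAG or ACAATG, families to which the gate genes Foxl1 and Sox6 belong; the GLI word GACCACCCA was also searched and no 2 matches overlapped.
Tspan13, chr12:36025469-36025768, intronic, CD138-specific: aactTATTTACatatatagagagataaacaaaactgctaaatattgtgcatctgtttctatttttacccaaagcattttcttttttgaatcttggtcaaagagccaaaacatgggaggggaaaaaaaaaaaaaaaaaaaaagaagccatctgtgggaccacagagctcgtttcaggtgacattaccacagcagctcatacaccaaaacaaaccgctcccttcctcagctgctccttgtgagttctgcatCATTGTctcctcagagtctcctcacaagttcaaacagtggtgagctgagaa
Bmp3, chr5:98894372-98894621, downstream of the gene, CD138-specific: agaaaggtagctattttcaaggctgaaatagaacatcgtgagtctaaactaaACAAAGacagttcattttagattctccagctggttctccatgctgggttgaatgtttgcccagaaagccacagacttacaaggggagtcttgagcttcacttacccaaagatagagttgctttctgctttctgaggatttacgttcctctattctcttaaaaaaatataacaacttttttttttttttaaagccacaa
Procr, chr2:155760159-155760382, downstream of the gene, Myofibroblast-specific: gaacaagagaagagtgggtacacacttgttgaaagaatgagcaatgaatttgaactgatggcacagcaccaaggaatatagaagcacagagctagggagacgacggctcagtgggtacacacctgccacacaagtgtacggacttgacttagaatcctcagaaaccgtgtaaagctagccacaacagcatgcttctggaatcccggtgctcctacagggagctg
Mt3, chr8:94150180-94150479, upstream of the gene, CD34 SP-specific: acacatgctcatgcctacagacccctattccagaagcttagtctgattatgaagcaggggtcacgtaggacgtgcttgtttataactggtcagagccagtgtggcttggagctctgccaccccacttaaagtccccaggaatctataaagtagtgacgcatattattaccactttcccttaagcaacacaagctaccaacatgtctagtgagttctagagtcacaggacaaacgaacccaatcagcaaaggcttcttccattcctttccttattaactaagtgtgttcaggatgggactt
The Tspan13 region held 1 FOX match at its bases 5 to 11 and 1 SOX match at bases 250 to 255. For comparison, a window of the same length was set around the midpoint of every CD138-specific peak, which extends shorter peaks into flanking sequence. Of these windows, 9.56% held a FOX match and 37.0% a SOX match. The Bmp3 region held 1 SOX match, at bases 53 to 58, and 31.7% of windows of its length around CD138-specific peaks held a SOX match. The Procr and Mt3 regions held none of these words, and no GLI word was found in any of the 4 (0.183 to 0.262% of such windows of the same lengths hold one). A match is a run of letters and not a binding site.

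The gate genes were used to choose the barcodes, so their values only describe the gate. Fgf9, an FGF ligand, had a UMI in 53 of the 75 gated barcodes and in 1.57% of the other kept barcodes. Sox6, a transcription factor, was found in 44 of the gated barcodes and in 0.770% of the others, and Ednrb, an endothelin receptor, in 43 of the gated barcodes and in 2.11% of the others. Foxl1, a forkhead factor, was found in 29 gated barcodes and 4.09% of the others, and Wif1, a secreted Wnt inhibitor, in 27 gated barcodes and 0.115% of the others. Foxl1 was the gate gene found most often in the other kept barcodes. The rule itself sets these genes apart between the groups, so their contrasts cannot rank them as markers. Among the barcodes with Pdgfra, 38 held exactly 2 gate genes and lay just inside the threshold, while 384 held 1 and lay just outside it. A further 58 kept barcodes held 2 or more gate genes and no Pdgfra UMI. Gated barcodes had a median of 7651 UMIs (range 2545 to 22793), against 6048 in the other kept barcodes, and a median of 1.34% mitochondrial UMIs in both groups. Pdgfra was found in every cluster, in 16.4 to 90.3% of its barcodes, so no cluster lacks fibroblast transcripts and none gives a background share for these genes.

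The label was checked by clustering all kept barcodes without the 5 gate genes and Pdgfra. Of the 75 gated barcodes, 48 fell into 1 small cluster of 72 barcodes, which is 64.0% of the gated barcodes (52.1 to 74.8%). The genes that led this cluster over the rest were Procr, Ednrb, Wif1, Sox6, Tspan13, Bmp3, Fgf9, Emid1, Fibin and Mt3 (Ednrb, Wif1, Sox6 and Fgf9 are gate genes, and gated barcodes make up 66.7% of the cluster, so their place here follows from the gate). Of the 37 gated barcodes with 3 or 4 gate genes, 33 lay in this leading cluster, against 15 of the 38 with exactly 2. It also held 24 barcodes outside the gate. The remaining 27 gated barcodes were scattered: 7 lay in a cluster led by Nrg1 and Plk2, 6 in a muscle-like cluster led by Myh11 and Actg2, 4 in a mesothelium-like cluster led by Slpi and Msln, and 10 in 5 further clusters. None lay in the cluster led by the antibody genes Igkc and Jchain or in that led by the epithelial genes Reg3b and Spink4. Among the 14 nearest neighbours of a barcode, gated barcodes made up 69.9% on average for gated barcodes of the leading cluster, 6.08% for gated barcodes outside it and 0.265% for the other kept barcodes. Of 20 crypt-top markers outside the gate, 11 reached 20 CPM and 2-fold over the rest in the leading cluster, against 0 of 13 crypt-bottom, 0 of 10 lamina propria, 1 of 11 muscle and 3 of 7 pericyte markers. The share of all genes that pass this rule was not computed. The crypt-top markers are not particular to this cluster: 6 of the 20 passed in the cluster led by Nrg1 and Plk2. In the muscle-like cluster and in that led by Ptx3, 3 passed in each. The 27 other gated barcodes lay mostly apart in the clustering, so the clustering does not bear out the label for them. They were not alike in the 20 crypt-top markers. These summed to 2997 CPM in the 6 muscle-like and 1586.5 CPM in the 4 mesothelium-like barcodes, but to 4403 CPM in the remaining 17. The sum was 5580 CPM in the 48 of the leading cluster and 2434 CPM in the other kept barcodes.

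**Figure D1:**
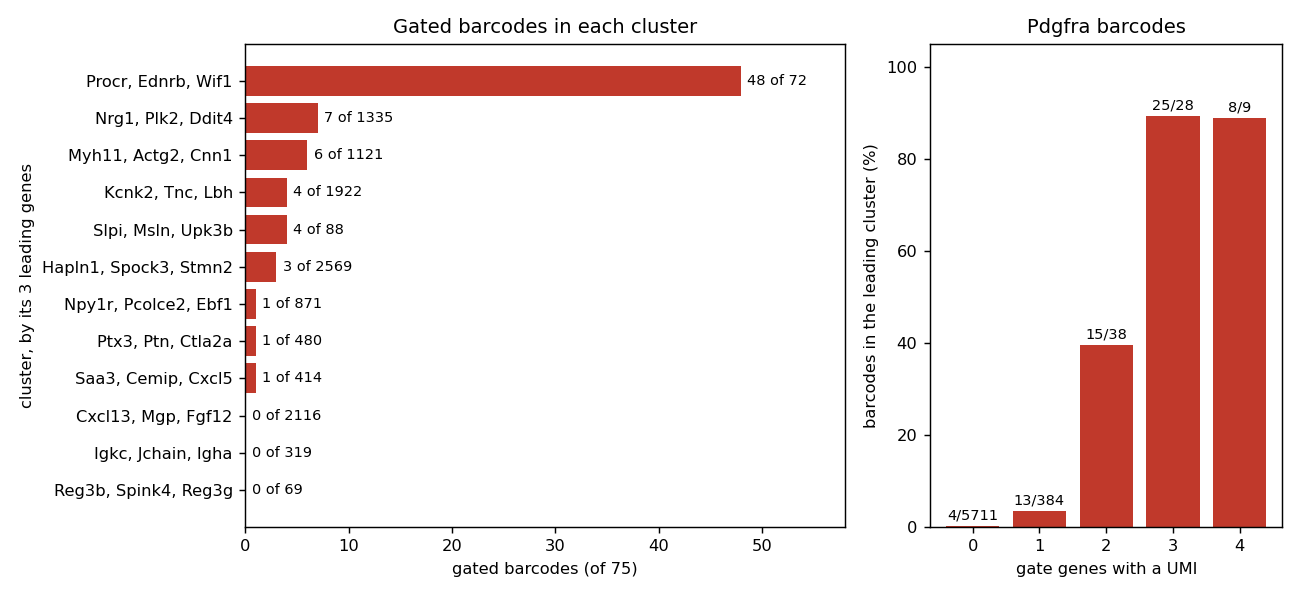
Left: bars give the number of the 75 gated barcodes in each of 12 clusters (named by 3 leading genes), with the cluster's size beside each bar. Right: bars give the percent of Pdgfra barcodes that lay in the leading cluster, by the number of gate genes with a UMI; 4 of 5711 barcodes with none and 25 of 28 with 3 did.

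Some gated barcodes carried markers of other cell types. The 4 gated barcodes of the mesothelium-like cluster held 131 of the 142 UMIs of the 6 mesothelial markers found in all gated barcodes, and the epithelial and immune marker lists summed to 1552 and 4139 CPM (UMI counts scaled per 1e+06 UMIs and pooled over barcodes) there, against 43.1 and 54.6 CPM in the 48 of the leading cluster. Slpi, a secreted protease inhibitor, reached 914 CPM over all gated barcodes, against 74.0 CPM in the other kept barcodes, but 94.1% of its UMIs came from 4 barcodes, and in the leading cluster it stood at 23.0 CPM. Msln, the mesothelial surface protein mesothelin, had 92.1 CPM in gated barcodes, 14.2 CPM in the others and 2.87 CPM in the leading cluster. All but 2 of the Msln UMIs lay in the 4 mesothelium-like barcodes, while 1 gated barcode of another cluster held 22 Slpi UMIs. The 11 muscle markers summed to 4929 CPM in gated barcodes (4526 CPM in the leading cluster), against 3517 CPM in the other kept barcodes and 1150 CPM in Pdgfra barcodes with no gate gene. Acta2, smooth muscle actin, had 2238 CPM in gated barcodes and 1284 CPM in the others, and Myh11, the smooth muscle myosin, had 187 CPM in gated barcodes and 167 CPM in the others. Of the 10 muscle markers compared, 0 were 2-fold higher than in the other kept barcodes, which include the muscle-like cluster, and 1, Des, was 2-fold lower (beside 4.32 and 3.17% of all compared genes). Against Pdgfra barcodes with no gate gene, 9 of the 10 were 2-fold higher, beside 4.91% of all genes. The muscle markers were unevenly spread, at 20729 CPM in the 6 gated barcodes of the muscle-like cluster. They summed to 1185 CPM in the 17 outside the leading, muscle-like and mesothelium-like clusters. For Myh11, Cnn1, Hhip, Actg2 and Lmod1, 50.8 to 73.5% of the UMIs came from 4 barcodes. For Acta2, Tagln, Mylk and Synpo2 it was 31.8 to 41.2%. Ptprc, Cd3e, Cd79a, Ms4a1 and S100a9 among 12 immune markers, Cdh5, Kdr and Cldn5 among 9 endothelial markers, and 7 of 8 enteric glia markers were at 0 UMIs in all gated barcodes, which allows up to 4.76 CPM each. None of these genes reached the mean of 10 CPM needed for comparison, so their zeros say little about the gated barcodes. The immune, endothelial and glia lists summed to 432, 19.0 and 1.59 CPM in gated barcodes and 292, 28.0 and 6.50 CPM in the others. Of 4 markers of interstitial cells of Cajal, Kit and Thbs4 were at 0 UMIs, while the chloride channel Ano1 had 30.2 CPM in gated barcodes and 2.02 CPM in the others, and the factor Etv1 had 44.4 CPM in gated barcodes and 21.2 CPM in the others. The 4 summed to 74.6 CPM in gated barcodes (68.9 CPM in the leading cluster) and 24.4 CPM in the others. The part of these markers in the differences below was not tested.

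**Figure D2:**
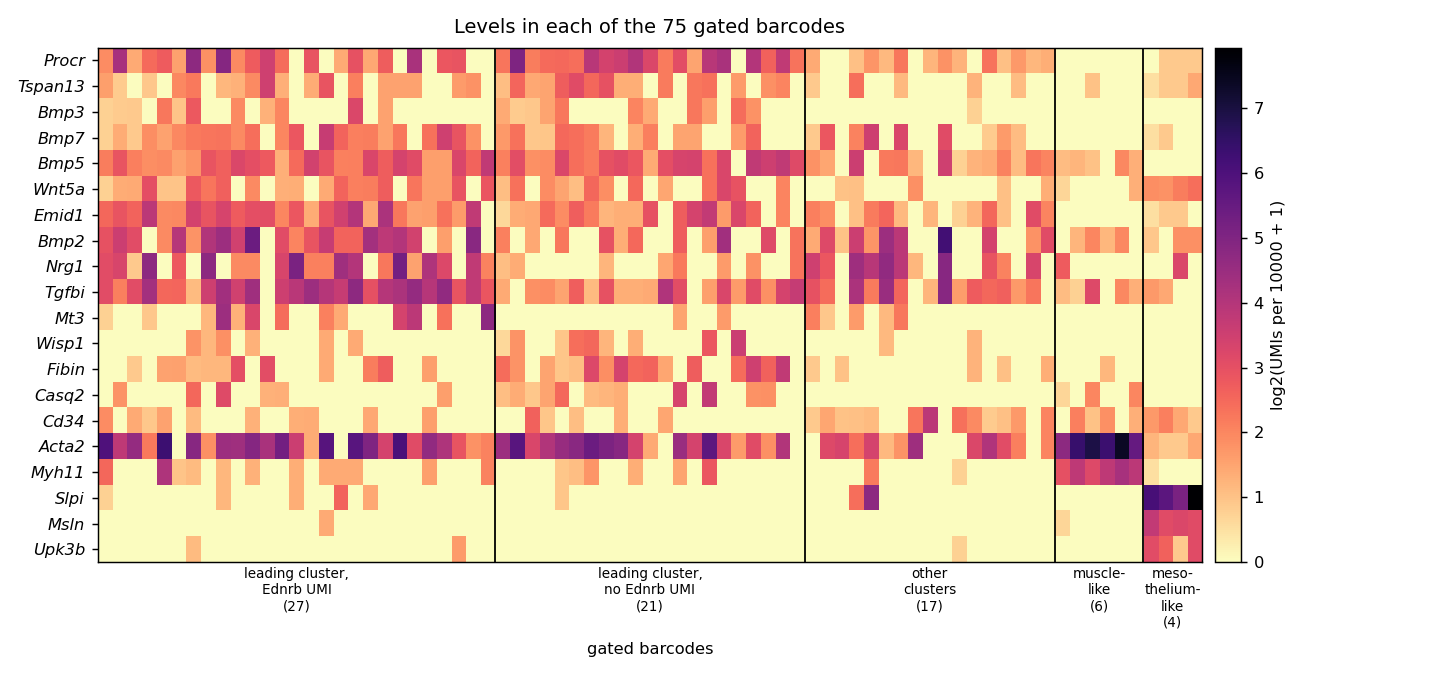
Each column is 1 of the 75 gated barcodes and each row a gene; colour gives log2 of UMIs per 10000 plus 1. Procr and Emid1 are seen mostly in the 48 barcodes of the leading cluster (27 with and 21 without an Ednrb UMI), while Slpi and Msln are high in the 4 mesothelium-like barcodes and Myh11 in the 6 muscle-like ones.

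Across the transcriptome, 8290 genes reached a mean of 10 CPM over the 2 groups, leaving out the gate genes and Pdgfra. Of these, 358 were at least 2-fold higher in gated barcodes (4.32%) and 263 were at least 2-fold lower (3.17%), with a median log2 fold of 0.06 over all compared genes. The lower bound of the fold was over 1 for 346 of the higher genes and at least 2 for 144 of them. Of the 358, 338 were also 2-fold higher against Pdgfra barcodes with no gate gene, and 283 were still 2-fold higher when only the 48 barcodes of the leading cluster were taken. These counts describe barcodes chosen by their transcripts in the same library, and they describe the group without testing it.

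**Figure D3:**
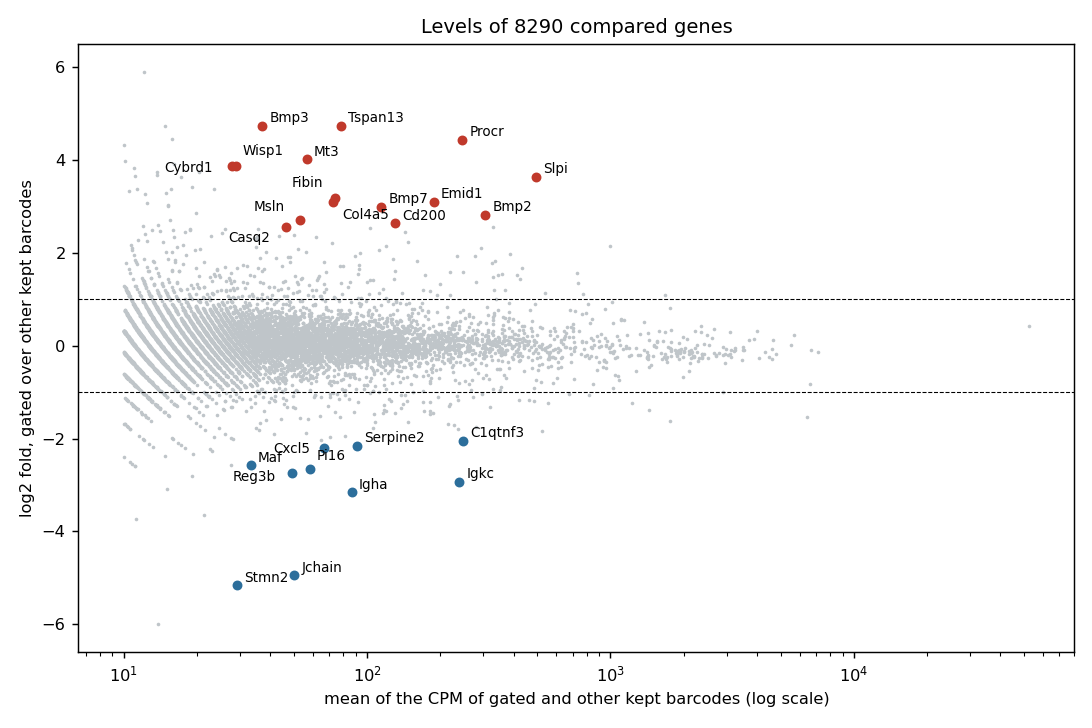
Each point is 1 of 8290 compared genes, with the mean CPM of the 2 groups on the x axis (log scale) and the log2 fold of gated over other kept barcodes on the y axis; dashed lines mark 2-fold, and a gene with no UMI in gated barcodes is drawn at -6. Tspan13, Bmp3 and Procr lie highest among labelled genes and Stmn2 and Jchain lowest.

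Among genes with at least 50 CPM in gated barcodes, the largest fold was that of Tspan13, a tetraspanin of the cell membrane, with 151 CPM (122 to 184) in gated barcodes and 5.70 CPM in the others, a 26.5-fold difference (20.9 to 33.1). Bmp3, a BMP family member known to oppose other BMPs, had 71.4 CPM (52.1 to 95.6) in gated barcodes and 2.71 CPM in the others, a 26.3-fold difference. Procr, the endothelial protein C receptor, had 470 CPM (418 to 527) in gated barcodes and 21.8 CPM in the others, 21.5-fold higher. Procr was the most widely detected of the 3, in 57 gated barcodes (76.0%) and in 10.8% of the others; after thinning every barcode to 3000 UMIs the shares were 55.4% of gated and 5.22% of other barcodes, with 1 gated and 735 other barcodes left out as shallower. The other kept barcodes include 24 of the leading cluster, where Procr stood at 900 CPM. In the 48 gated barcodes of the leading cluster Procr had 775 CPM, Tspan13 230 CPM and Bmp3 126 CPM, all above their levels over the 75. Per barcode, Procr ranged up to 31.7 UMIs per 10000 with a median of 2.59.

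The 15 genes with the largest folds went on with metal, matrix and membrane proteins. Mt3, a metal-binding metallothionein, had 106 CPM in gated barcodes and 6.63 CPM in the others, but was found in only 20 of the 75. Wisp1, a matricellular protein of the CCN family, had 54.0 CPM in gated barcodes and 3.71 CPM in the others. Cybrd1, a ferric reductase, had 52.4 CPM in gated barcodes and 3.61 CPM in the others. These 3 genes were 16.1-fold, 14.6-fold and 14.5-fold higher in gated barcodes. Emid1, an extracellular protein with an EMI domain, was the most widely detected gene of the 15, in 60 gated barcodes, at 337 CPM in them and 39.5 CPM in the others. Col4a5, a collagen IV chain of basement membranes, had 130 CPM in gated barcodes and 15.4 CPM in the others. Fibin, a secreted protein first described in fin bud development of fish, had 133 CPM in gated barcodes and 14.7 CPM in the others. Cd200, a membrane ligand that restrains myeloid cells, had 224 CPM in gated barcodes and 36.1 CPM in the others, and Casq2, a calcium-storing protein of muscle, had 79.4 CPM in gated barcodes and 13.6 CPM in the others. The list also held Bmp7, Bmp2, Slpi and Msln. Some of these genes were also found elsewhere in the library, since outside the gate Casq2 stood at 110 CPM in the muscle-like cluster, and Cd200 and Tspan13 at 354 and 102 CPM in the mesothelium-like cluster.

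Levels were also set out by the number of gate genes a Pdgfra barcode held, and depth differed over these steps (medians of 6354, 7306, 7806, 6882 and 11907 UMIs for 0, 1, 2, 3 and 4 gate genes). Procr stood at 20.9 CPM with 0 gate genes, 47.1 with 1, 229 with 2, 457 with 3 and 1311 with 4. Bmp3 stood at 2.45, 7.34, 31.0, 104 and 136 CPM over the same steps, and Wnt5a at 27.6, 55.1, 130, 203 and 262 CPM. Cd34, a surface protein of crypt-base fibroblasts, had the opposite order, at 459, 425, 164, 99.0 and 73.4 CPM. Its last value rests on 7 UMIs, and its intervals at 3 and 4 gate genes overlap. Other crypt-bottom genes did not keep this order. Grem1 and Sfrp1 fell to 28.3 and 151 CPM at 3 gate genes but stood at 199 and 388 CPM at 4. Rspo3 had 0 UMIs at 3 gate genes and 1 UMI at 4. Tspan13, Bmp2, Bmp5, Bmp7, Col4a5, Nrg1, Tgfbi and Id1 were highest at 3 gate genes and not at 4, where 9 barcodes are available. Nrg1 stood at 174, 200, 453, 717 and 199 CPM over the steps, with an interval of 120 to 311 CPM at 4. Its level at 4 gate genes was thus close to those at 0 and 1. Cybrd1 was lower at 3 gate genes than at 2, and Slpi and Msln were highest at 2.

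**Figure D4:**
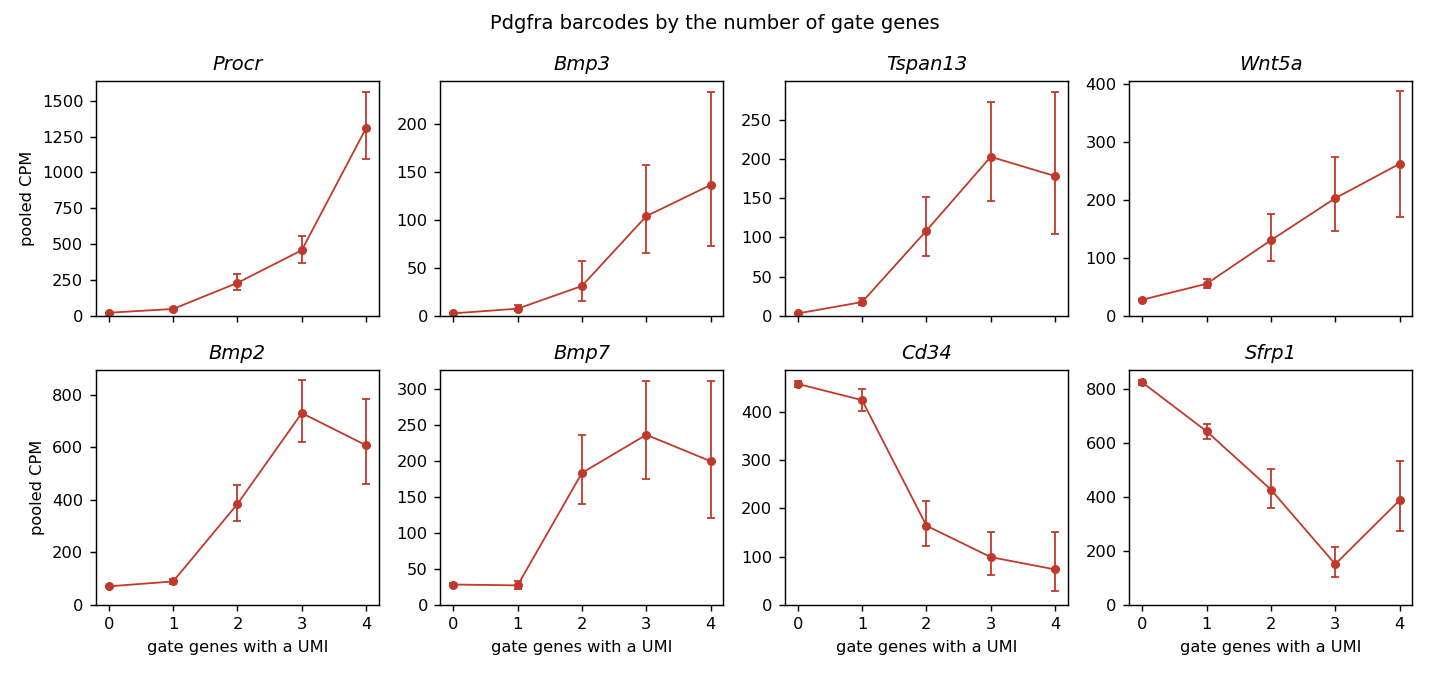
Pooled CPM (y axis) of 8 genes in Pdgfra barcodes by the number of gate genes with a UMI (x axis; 5711, 384, 38, 28 and 9 barcodes); bars are 95% Poisson intervals. Procr, Bmp3 and Wnt5a climb at every step, Cd34 declines at every step, and Sfrp1 is lowest at 3 gate genes.

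Among the BMP ligands, 4 of the 6 with enough transcripts were at least 2-fold higher in gated barcodes (against 4.32% of all compared genes), none was lower, and the median log2 fold of the 6 was 2.37, against 0.06 over all compared genes. Bmp2 had 535 CPM (479 to 595) in gated barcodes and 76.0 CPM in the others, a 7.04-fold difference (6.28 to 7.86). Bmp7 had 203 CPM (170 to 242) in gated barcodes and 25.7 CPM in the others, 7.91-fold higher. Bmp5 had 370 CPM (324 to 421) in gated barcodes and 97.7 CPM in the others, 3.79-fold higher, and it was found in 66 of the 75. Bmp4, a further BMP ligand of gut stroma, was nearly level, with 929 CPM (855 to 1007) in gated barcodes and 866 CPM in the others. Bmp6 had 66.7 CPM in gated barcodes and 86.7 CPM in the others, with an interval of the fold (0.554 to 1.04) that spans 1. Summed, the BMP ligands reached 2183 CPM (2069 to 2301) in gated barcodes, 1206 CPM in Pdgfra barcodes with no gate gene and 1168 CPM in all other kept barcodes, which is 1.87-fold (1.77 to 1.97) over the last. In the leading cluster alone the sum was 2653 CPM, with 635 CPM of Bmp2, 531 CPM of Bmp5 and 264 CPM of Bmp7. Bmp2, Bmp3, Bmp5 and Bmp7 were thus higher while Bmp4 was at a like level in both groups.

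The BMP antagonists moved in both directions. Nbl1, which encodes the secreted BMP antagonist DAN, had 1627 CPM (1529 to 1730) in gated barcodes and 368 CPM in the others, a 4.42-fold difference (4.15 to 4.70), and it was found in 74 of the 75. In the leading cluster it had 2355 CPM. Grem1, the crypt-base antagonist, was lower, with 88.9 CPM (67.2 to 115) in gated barcodes and 186 CPM in the others, and 42 of its 56 UMIs came from 4 barcodes. Chrdl2 was 3.65-fold higher, but 86.7% of its UMIs came from 4 barcodes, and in the leading cluster it was 1.32-fold. Fstl1 had 433 CPM in gated barcodes and 583 CPM in the others. Of the 8 antagonists compared, 2 were higher and 1 lower at 2-fold, beside 4.32 and 3.17% of all compared genes. Among 11 receptors and targets, Id1, a target of BMP signalling, was 3.55-fold higher, with 251 CPM in gated barcodes and 70.7 CPM in the others, and Id4 was lower, with 7.94 CPM in gated barcodes and 37.3 CPM in the others. Id2 and Id3 stayed under 2-fold, at 1.88 and 1.34.

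**Figure D5:**
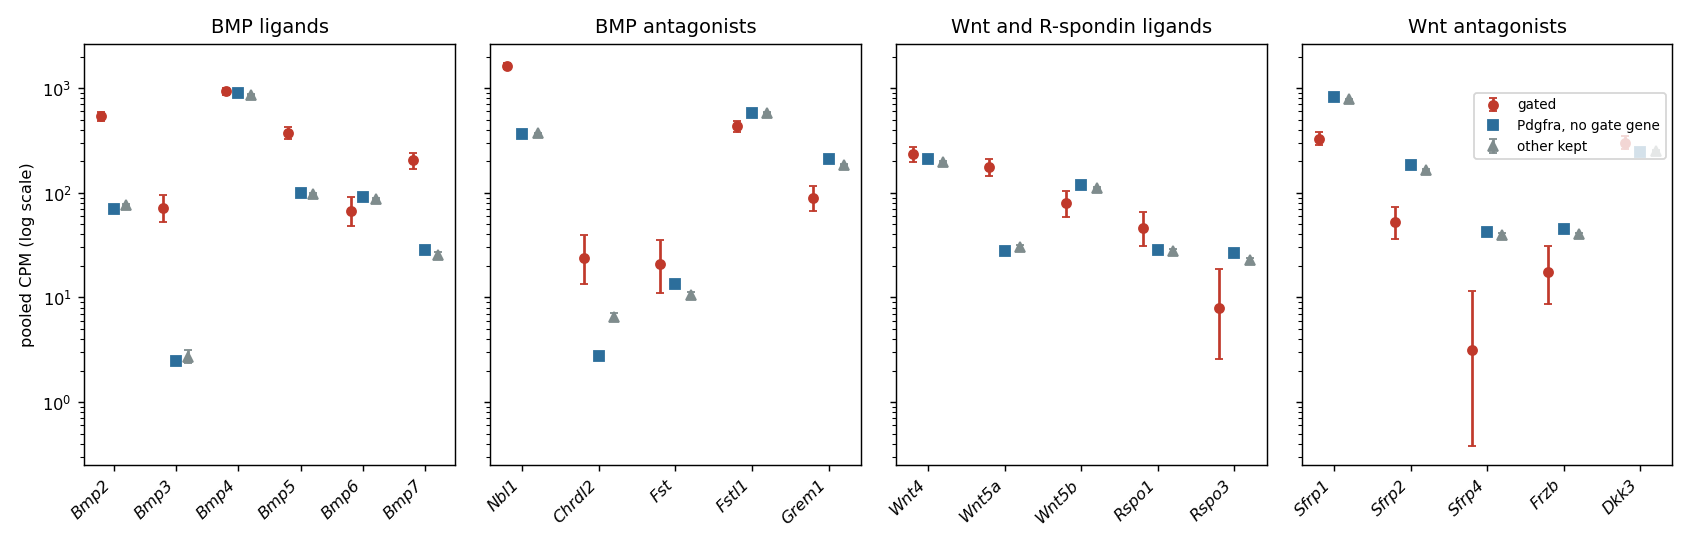
Pooled CPM (y axis, log scale) of secreted signals and their antagonists in gated barcodes (circles, with 95% Poisson intervals), Pdgfra barcodes with no gate gene (squares) and other kept barcodes (triangles, with intervals). Bmp2, Bmp3, Bmp5, Bmp7, Nbl1 and Wnt5a lie higher in gated barcodes, Bmp4 is nearly level, and the Sfrp genes and Rspo3 lie lower.

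Among Wnt genes, Wnt5a, the main ligand of noncanonical Wnt signalling, had 175 CPM (144 to 210) in gated barcodes and 30.5 CPM in the others, a 5.73-fold difference (4.69 to 6.94), and 241 CPM in the leading cluster. Wnt4 and Wnt5b, the other noncanonical ligands compared, did not reach 2-fold, with 232 and 79.4 CPM in gated barcodes and 197 and 110 CPM in the others. Wnt2, a canonical ligand, was lower, with 1 UMI or 1.59 CPM in gated barcodes and 21.0 CPM in the others. Of the R-spondins compared, Rspo3 was lower, with 7.94 CPM in gated barcodes and 22.7 CPM in the others, while Rspo1 had 46.0 CPM in gated barcodes and 27.9 CPM in the others, with 25 of its 29 UMIs in 4 barcodes. The R-spondins summed to 55.6 CPM in gated barcodes and 51.5 CPM in the others, and to 11.5 CPM in the leading cluster. Of 6 Wnt antagonists and feedback genes compared, 4 were lower (against 3.17% of all compared genes) and none was higher. These were Sfrp1, Sfrp2 and Sfrp4, secreted Frizzled-related proteins that bind Wnts, and Frzb, a relative of theirs; Sfrp1 had 329 CPM in gated barcodes and 779 CPM in the others, and Sfrp4 had 3.17 CPM in gated barcodes and 39.6 CPM in the others. Frzb is on the list of crypt-top markers used here, so its direction goes against that list. Dkk3 was nearly level at 302 CPM in gated barcodes and 253 CPM in the others.

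The gated barcodes also carried endothelin and growth factor genes. Apart from the gate gene Ednrb, the 3 endothelin genes compared were all higher (4.32% of all compared genes were): the receptor Ednra had 162 CPM in gated barcodes and 70.0 CPM in the others, the ligand Edn3 had 23.8 CPM in gated barcodes and 3.94 CPM in the others, and the processing enzyme Ece1 had 124 CPM in gated barcodes and 60.7 CPM in the others. Nrg1, a ligand of ErbB receptors, was 3.44-fold higher, with 503 CPM (449 to 562) in gated barcodes and 146 CPM in the others. The cluster led by Nrg1 and Plk2 held 722 CPM outside the gate, more than the gated barcodes. Of the 9 FGF, EGF and HGF ligands compared, 4 were higher and 1 lower, beside 4.32 and 3.17% of all compared genes. Areg, Btc and Fgf1 were the others that were higher, but 77.6, 75 and 62.5% of their UMIs came from the top 4 barcodes of each. Fgf7, a fibroblast ligand for epithelial receptors, was lower, with 47.6 CPM in gated barcodes and 97.3 CPM in the others. In the PDGF and TGF-beta list 2 of 14 genes were higher, beside 4.32% of all compared genes, and the median log2 fold was -0.16: Tgfbi, a TGF-beta induced matrix protein, with 619 CPM in gated barcodes and 158 CPM in the others, and Inhba, the activin A subunit, with 47.6 CPM in gated barcodes and 14.4 CPM in the others. None of the 9 Hedgehog response genes compared reached 2-fold; Ptch1, the Hedgehog receptor and target, stood at 1.85-fold, and the forkhead genes Foxf2 and Foxf1 at 1.77-fold and 1.59-fold. Against Pdgfra barcodes with no gate gene, 3 of the Hedgehog genes did reach it, beside 4.91% of all genes higher and 3.5% lower in that comparison.

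Of 19 basement membrane genes compared, 6 were higher and 2 lower, where 4.32 and 3.17% of all compared genes were. Col4a5 and Col4a6, neighbouring collagen IV genes, were 8.45-fold and 7.25-fold higher, and Egflam, which encodes the basement membrane proteoglycan pikachurin, was 13.3-fold higher, with 38.1 CPM in gated barcodes and 2.86 CPM in the others. Lama5, Smoc1 and Smoc2 were higher at under 35 CPM each, while Nid2 and Col15a1 were lower. Of 26 interstitial matrix genes compared, 2 were higher and 5 lower (4.32 and 3.17% of all compared genes), among the lower ones Eln, which encodes elastin, with 229 CPM in gated barcodes and 823 CPM in the others, and Fbln1, with 733 CPM in gated barcodes and 1719 CPM in the others. Col14a1, Fbln2 and Mfap5 were lower as well. Ogn, a small leucine-rich proteoglycan, was higher, with 1092 CPM in gated barcodes and 369 CPM in the others, as was Col6a4. Among 21 transcription factors compared, Sox4, Nkx2-3 and Runx1 were higher and Foxp2, Prrx2, Zeb2 and Ebf1 lower (4.32 and 3.17% of all compared genes); Nkx2-3, a homeobox factor of gut mesenchyme, had 738 CPM in gated barcodes and 338 CPM in the others.

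Marker lists of fibroblast positions also differed. Of 18 crypt-top markers outside the gate, 11 were higher and 2 lower (4.32 and 3.17% of all compared genes), with a median log2 fold of 1.77, and their sum was 4653 CPM in gated barcodes and 2434 CPM in the others. Tissue factor F3 and Tmem158 belonged to them, with 243 and 564 CPM in gated barcodes and 44.7 and 96.8 CPM in the others. Of 11 crypt-bottom markers compared none was higher and 6 were lower (Cd34, Grem1, Rspo3, Sfrp1, Pi16 and Cd55), beside 3.17% of all compared genes. Their sum differed less, at 4508 CPM in gated barcodes (2875 CPM in the leading cluster) and 5127 CPM in the others. Cd34 had 129 CPM (102 to 160) in gated barcodes, 71.8 CPM in the leading cluster and 433 CPM in the others. Cd81, a further crypt-bottom marker, was 0.736-fold over all gated barcodes (114 CPM, against 155 CPM in the others) but had 17.2 CPM in the leading cluster, since 76.4% of its UMIs in gated barcodes came from 4 barcodes. Of 10 lamina propria markers, 4 were lower, beside 3.17% of all compared genes. The sort marker Thy1 had 74.6 CPM in gated barcodes and 150 CPM in the others, and Pdpn had 333 CPM in gated barcodes and 285 CPM in the others. Sdc1, which encodes CD138, was level at 106 CPM in gated barcodes and 104 CPM in the others. These lists were chosen with results of this library known, so their counts are no independent evidence of position.

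Genes of inflammation went in both directions, with 5 higher and 5 lower of 26 compared (4.32 and 3.17% of all compared genes). The chemokine Cxcl14 had 621 CPM in gated barcodes and 229 CPM in the others, and Ptgs1, the constitutive cyclooxygenase, had 192 CPM in gated barcodes and 87.4 CPM in the others. In the leading cluster they were 3.31-fold and 3.02-fold higher than in the other kept barcodes. Il1rl1, the IL-33 receptor, was 9.62-fold higher on 14 UMIs in 6 barcodes. Cxcl10, an interferon-induced chemokine, was 2.30-fold over all gated barcodes and 0.444-fold in the leading cluster, and 95.1% of the Il11 UMIs came from 4 barcodes. Il6, Mmp3, Has1, Cxcl5 and Ccl11 were lower; Ccl11, the chemokine eotaxin, had 259 CPM in gated barcodes and 581 CPM in the others. Genes of the cell cycle were low in both groups, with 6 of 10 at 0 UMIs in gated barcodes. The 10 summed to 46.0 CPM in gated barcodes and 66.6 CPM in the others, and neither of the 2 compared reached 2-fold.

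Of the 10 lowest genes by fold, Jchain, Igha and Igkc are antibody genes of plasma cells and Reg3b is made by epithelium, and all 4 were higher in empty droplets than in either group. Igkc had 55.6 CPM in gated barcodes, 423 CPM in the others and 1076 CPM in empty droplets, and its fold of 0.131 became 0.724 once barcodes with UMIs of other cell types were left out. Stmn2, a stathmin of neurons that here was among the leading genes of the Hapln1 cluster, had 1 UMI or 1.59 CPM in gated barcodes and 56.7 CPM in the others. C1qtnf3, a secreted C1q family protein, had 96.8 CPM in gated barcodes and 399 CPM in the others, and Serpine2, a protease inhibitor, had 33.3 CPM in gated barcodes and 148 CPM in the others. Pi16, Maf and Cxcl5 completed the set.

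Within the leading cluster the 48 gated barcodes are described here by their Ednrb transcripts, a split chosen after the values were seen. Ednrb is a gate gene, so barcodes without it entered by 2 or more of Wif1, Sox6, Foxl1 and Fgf9. Barcodes with it needed fewer of these, so the sides differ in part by the rule. A barcode without an Ednrb UMI may also have held transcripts that were not counted. Of the 48, 27 held an Ednrb UMI and 21 did not, with median depths of 6560 and 5945 UMIs. Nrg1 had 892 CPM (764 to 1034) in barcodes with Ednrb and 72.4 CPM (36.1 to 130) in those without. Wnt4 had 413 CPM with Ednrb and 79.0 CPM without, and Bmp2 had 932 CPM with Ednrb and 250 CPM without. Mt3 was found in 13 barcodes with Ednrb and in 2 without. The opposite side held Igfbp5, a secreted binder of insulin-like growth factors, with 163 CPM with Ednrb and 1343 CPM without, as well as Wisp1, with 40.8 CPM with Ednrb and 151 CPM without, and Fibin, with 127 CPM with Ednrb and 342 CPM without. Bmp3, Bmp5, Wnt5a and Nbl1 differed little, with folds between 0.862 and 1.20, at 122, 499, 260 and 2201 CPM with Ednrb and 132, 573, 217 and 2554 CPM without. Immediate early genes moved with the split: Fos had 4993 CPM with Ednrb and 1468 CPM without, and Fosb had 830 CPM with Ednrb and 118 CPM without. The part of these genes in the other differences was not tested.

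The chromatin lists do not hold the gated cells as a population of their own, so they show only where the genes above lie open in the 4 sorted populations. Of the 350 genes that were higher in gated barcodes and had a protein-coding transcript, between 92.3% (Myofibroblast) and 95.1% (CD138) had a peak within 1 kb of a transcription start, with 93.1% for the MRISC list and 94.9% for that of CD34 SP. The same held for 97.5 to 98.8% of the 8189 compared genes with a protein-coding transcript. Some peaks are listed as specific to 1 population and lay in the bodies of the higher genes or within 10 kb of them. Of these, 32.6% were CD138 peaks, against 27.8% at all compared genes, and 16.8% were CD34 SP peaks, against 21.1%. Myofibroblast peaks made up 28.3%, against 25.8%, and MRISC peaks 22.3%, against 25.3%. Per gene, CD34 SP peaks were level, at a mean of 3.41 at the higher genes and 3.42 at all compared genes. CD138 peaks had a mean of 6.62 per higher gene, 6.76 per lower gene and 4.50 over all compared genes. The window of Tspan13, singled out after its values were seen, on chromosome 12 (gene body 36014557 to 36042500, minus strand, GRCm38) held 10 CD138-specific peaks, 1 Myofibroblast-specific peak and none of the other 2 populations. At Procr on chromosome 2 the 4 populations had between 2 and 6 peaks.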

How the data were processed

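Single-cell RNA came from 1 droplet library (10x Genomics 3'RNASeq V2, per the labels' protocols). The deposited values are counts of UMIs per gene and barcode. The submitters' processing notes name bcl2fastq, Cell Ranger and Seurat with the mm10 build, and the matrix gives software version 3.0.0, per the file headers; no source used here gives the filters applied before deposit. A minimum of 500 genes and a maximum of 10% mitochondrial UMIs left 11376 of 11484 barcodes, to which the gate was applied. No doublet caller was run and no doublets were removed. UMIs were pooled per group, scaled to CPM and compared where the mean of both groups was at least 10 CPM, with the gate genes and Pdgfra left out; a gene was called when 2-fold higher or lower. Levels have exact Poisson intervals, folds exact conditional binomial intervals and shares exact binomial intervals (95%), covering counting error only. A count of 0 is bounded at 3 UMIs. Gated barcodes held 629957 UMIs in all and the other kept barcodes 72290240.

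Clusters came from 1996 variable genes without the gate genes and Pdgfra, 30 principal components, 14 neighbours and Leiden clustering at resolution 0.5 (Python 3.11.15, numpy 2.4.6, scipy 1.17.1, scanpy 1.11.5, leidenalg 0.10.2, scikit-learn 1.9.0 and, for figures, matplotlib 3.10.9). Free RNA made up an estimated 3.60% of UMIs in gated barcodes and 5.69% in the other kept barcodes, from antibody genes. The comparison was also run on simulated independent Poisson counts with known folds. These lack the uneven spread over barcodes and the gating of the real data, so the run checks the calculation only. Open chromatin was read from the deposited lists of peaks, whose score has no meaning given in the sources used here and was used only to rank peaks within a list; the peak caller and how libraries were combined are likewise not given there. Peaks were joined to GENCODE vM21 genes on GRCm38, with a promoter taken as 1 kb and a gene's window as 10 kb to either side.

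The members, gene lists and the Ednrb split were chosen with earlier results of these data known. Named genes were the 15 with the largest fold among higher genes with at least 50 CPM in gated barcodes, the 10 lowest among genes with at least 50 CPM in the other kept barcodes, and list genes past 2-fold or needed to account for a list. Alternatives changed the gate, depth, clustering, scaling, minimum level, fold, promoter width and peak score; a list of sort marker genes and 2 choices of gated barcodes were added after seeing the data.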

Additional observations from a re-analysis of the deposited data

How the results depend on the processing

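No paired analysis was possible because the single-cell data are 1 library and each peak list is 1 per population. The limits are those of 1 library with 75 gated barcodes: no spread between animals can be given, low genes rest on few UMIs, and 27 gated barcodes lay outside the leading cluster. Of 89 named genes, 68 stayed on the same side of 2-fold in all 14 settings, and of 1246 recomputed folds 1169 kept their side, 49 became weaker and 28 reversed. The gated number was 37 with at least 3 gate genes and 28 after thinning to 3000 UMIs. The 358 higher genes became 1260 after thinning, 547 at a minimum of 5 CPM, 1512 with no minimum, 987 at 1.5-fold and 140 at 3-fold. Thinned gated barcodes hold 3000 UMIs each, so a call after thinning, higher or lower, can rest on few UMIs or none. The 263 lower genes became 578 with at least 3 gate genes, 1026 after thinning, 396 without Fgf9 in the gate, 500 at a minimum of 5 CPM, 7789 with no minimum, 752 at 1.5-fold, 69 at 3-fold, 565 with only the leading cluster and 398 without the mesothelium-like and muscle-like barcodes. The summed BMP fold of 1.87 became 2.27 with at least 3 gate genes, 2.48 after thinning, 2.05 without Sox6, 2.03 without Foxl1 and 2.00 without Fgf9 in the gate, 2.07 as a mean over barcodes, 2.27 with only the leading cluster and 2.14 without the mesothelium-like and muscle-like barcodes. Counting only peaks above the median score of each list, promoter peaks lay at 86.6% of the higher genes for Myofibroblast, 92.0% for CD138 and 91.4% for CD34 SP. The share of gated barcodes in the leading cluster was 65.3% at resolution 1.0, 64.0% at 0.25 and 73.3% with the gate genes kept in the clustering.

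The folds that reversed belonged to 9 genes. With at least 3 gate genes Slpi had a fold of 0.279, Msln 0.218, Areg 0.880, Cxcl10 0.400, Fgf1 0.761 and Il11 0.255. After thinning Slpi had 0.441 and Fgf7 1.11, and Msln, Chrdl2, Il11 and Smoc2 were at 0 UMIs, a fold of 0. Without Sox6 in the gate Slpi had 0.828 and Msln 0.273, without Ednrb Areg had 0.845 and Il11 0.327, and without Foxl1 Areg had 0.825. Without Fgf9 Slpi had 0.191, Msln 0.298, Fgf1 0.781 and Il11 0.524. With only the leading cluster, a choice made after seeing the data, Slpi had 0.310, Msln 0.202, Cxcl10 0.444 and Il11 0.344. Without the mesothelium-like and muscle-like barcodes, likewise chosen after seeing the data, Slpi had 0.903, Msln 0.138 and Areg 0.806. For Slpi, Msln and Il11 over 94% of the UMIs came from 4 barcodes, and for the other reversed genes 50 (Fgf7) to 86.7% (Chrdl2). The cause was not tested for any of them.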
